A study of Mus musculus with 4 samples.

Results

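Claudins are membrane proteins that line up into the strands of the tight junction, the seal between neighbouring epithelial cells. The 9 genes described here, Cldn1, Cldn3, Cldn4, Cldn6, Cldn7, Cldn8, Cldn9, Cldn12 and Cldn23, were listed by name as claudins of epithelia, out of 21887 protein-coding genes placed on chromosomes 1 to 19, X and Y. Every peak whose midpoint lay inside one of these genes or within 10 kb of either end was taken. This gave 10 of the 41612 Slug peaks and 9 of the 28375 Snail peaks.

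The peaks came from chromatin immunoprecipitation followed by sequencing (ChIP-seq) in 2 mouse breast cancer cell lines, both from the MMTV-PyMT model, whose mammary tumours arise because the promoter of a mouse mammary tumour virus expresses the polyoma middle T antigen there. Slug (gene Snai2) was mapped in pBl.1G, labelled epithelial with high Slug, with a rabbit monoclonal antibody to Slug. Snail (gene Snai1) was mapped in pBl.3G, labelled mesenchymal with high Snail, with an antibody that, by its label, recognises both Snail and Slug. Neither line was treated. With 1 library for each factor, and with factor, antibody and cell line differing together, nothing below could be tested against replicate spread, and which of the 3 a difference follows cannot be told apart. Expression was not measured in these files, so the labelled cell types could not be checked against marker genes.

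Slug and Snail are zinc finger repressors of one family. They bind E-boxes, short motifs of the form CANNTG, and prefer the E-box CAGGTG, which reads CACCTG on the other strand. In epithelial-mesenchymal transition (EMT) cells lose tight junctions, and claudin genes, Cldn3, Cldn4 and Cldn7 among them, are known as genes that Snail can repress through E-boxes in their promoters.

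Promoter sequences show which claudin starts carry this motif. RefSeq promoter entries (build GRCm38.p6, which shares its coordinates with mm10; 250 bases before the annotated start and 50 after it) were matched for 6 of the 9 genes, with 9 starts in all. CAGGTG or CACCTG was present in 4 of these 6 genes, against 22.1% of the 17492 protein-coding genes with such an entry, and 3 of the 6, Cldn4, Cldn6 and Cldn7, held 2 copies in 1 promoter, against 3.25%. The sequences below, 5′ to 3′ on the strand of the gene, are those of the starts that hold the motif, with that of Cldn1 as a start that lies under a Snail peak without it. Capitals mark CAGGTG and CACCTG.
Cldn3, chr5:134985964-134986263, plus strand: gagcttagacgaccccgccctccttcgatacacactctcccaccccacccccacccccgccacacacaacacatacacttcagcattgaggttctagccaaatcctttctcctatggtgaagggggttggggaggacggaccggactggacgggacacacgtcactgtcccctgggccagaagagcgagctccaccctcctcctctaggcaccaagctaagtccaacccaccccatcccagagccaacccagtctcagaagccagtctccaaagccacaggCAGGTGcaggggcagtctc
Cldn4, chr5:134946885-134947184, minus strand: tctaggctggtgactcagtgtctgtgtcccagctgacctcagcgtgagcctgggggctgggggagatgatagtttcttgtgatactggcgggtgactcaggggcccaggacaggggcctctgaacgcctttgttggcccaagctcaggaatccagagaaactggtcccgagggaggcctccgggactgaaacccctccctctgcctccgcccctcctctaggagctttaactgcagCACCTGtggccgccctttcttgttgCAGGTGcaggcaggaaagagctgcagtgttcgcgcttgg
Cldn6, chr17:23679115-23679414, plus strand: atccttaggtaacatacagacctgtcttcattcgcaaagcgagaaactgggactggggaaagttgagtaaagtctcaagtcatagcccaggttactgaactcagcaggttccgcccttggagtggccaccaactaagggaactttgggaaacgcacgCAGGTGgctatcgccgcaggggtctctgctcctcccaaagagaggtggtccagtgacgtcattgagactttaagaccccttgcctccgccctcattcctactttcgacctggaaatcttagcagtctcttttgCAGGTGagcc
Cldn7, second start, chr11:69965171-69965470, plus strand: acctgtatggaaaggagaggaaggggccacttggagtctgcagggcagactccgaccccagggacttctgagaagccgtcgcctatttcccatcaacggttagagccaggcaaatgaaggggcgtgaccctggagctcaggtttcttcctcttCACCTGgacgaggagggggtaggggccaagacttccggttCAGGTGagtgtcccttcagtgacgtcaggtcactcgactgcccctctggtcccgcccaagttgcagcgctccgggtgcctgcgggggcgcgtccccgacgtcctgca
Cldn1, chr16:26371790-26372089, minus strand: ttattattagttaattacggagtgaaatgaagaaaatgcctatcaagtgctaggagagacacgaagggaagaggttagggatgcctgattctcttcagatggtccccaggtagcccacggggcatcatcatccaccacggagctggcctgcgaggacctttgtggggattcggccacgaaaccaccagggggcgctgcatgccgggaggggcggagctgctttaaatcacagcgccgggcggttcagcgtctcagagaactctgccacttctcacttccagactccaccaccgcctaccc
With the annotated start as position 0, the motif of Cldn3 began at 31, those of Cldn4 at -14 and 11, those of Cldn6 at -93 and 40, and those of the second Cldn7 start at -97 and -57. The first Cldn7 start and the 3 overlapping windows of Cldn12 had no copy. A match is a stretch of letters and not evidence of binding, and the absence of one says only that these letters are not in the window.

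Motif and Slug peak met at Cldn3 and Cldn4. Slug peaks covered 3 of the 7 motif copies, the one of Cldn3 and both of Cldn4, and a Snail peak covered 1, that of Cldn3. The midpoint of the Slug peak at Cldn4 lay 5 bp from one copy and 20 bp from the other, in opposite directions, and the midpoint of the Slug peak at Cldn3 lay 66 bp from its copy. Cldn6 and the second start of Cldn7 held 2 copies each with no peak of either list over them. Among all 21263 promoter entries of protein-coding genes, 4193 (19.7%) held the motif. Of these 4193, a Slug peak touched 333 and a Snail peak touched 1749. That count is by promoter window and not by motif copy. The share with the motif was 39.4% of the 845 that a Slug peak touched and 16.7% of the 10472 that a Snail peak touched. These sets overlap, with 726 entries touched by both, of which 37.5% held the motif. It was 51.3% of the 119 touched by Slug alone, 15.2% of the 9746 touched by Snail alone and 22.3% of the 10672 touched by neither.

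**Figure D1:**
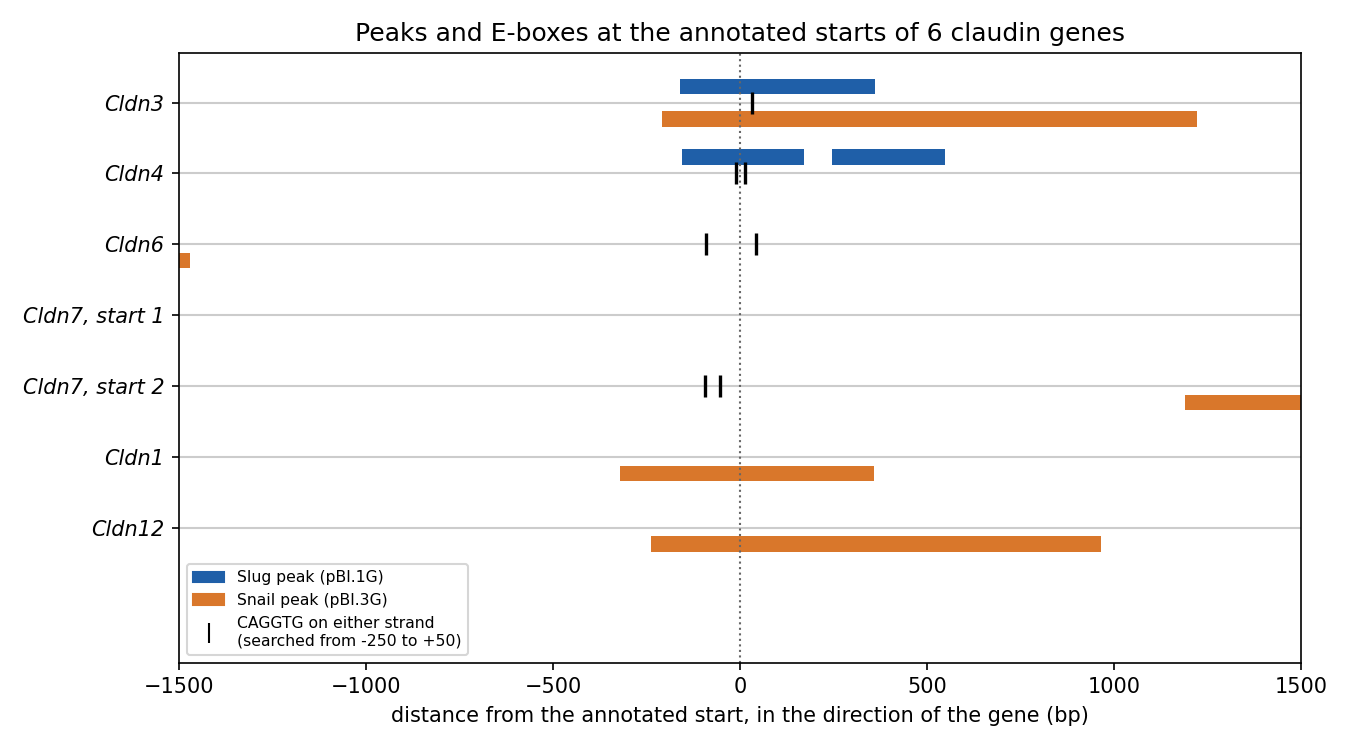
Peaks and E-boxes around annotated starts. The horizontal axis is the distance from the start in bp, in the direction of the gene, blue bars are Slug peaks, orange bars Snail peaks and black ticks the motif CAGGTG on either strand between -250 and 50. Slug bars lie over the starts and motifs of Cldn3 and Cldn4, Snail bars over the starts of Cldn3, Cldn1 and Cldn12, and the motifs of Cldn6 and of the second Cldn7 start lie under no bar. For Cldn12 the outermost of its 3 starts is drawn.

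A Slug peak covered an annotated start in 2 of the 6 genes, Cldn3 and Cldn4, while 2.42% of the 17492 genes had a start covered in the Slug list. Snail peaks covered a start in 3, Cldn1, Cldn3 and Cldn12, while 49.9% of all genes had one. Cldn3 was the 1 member with its start in both lists, as were 2.11% of all genes. No test accompanies these counts, because the members were chosen with results of these data known.

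Over the whole windows, 5 of the 9 genes had a Slug peak (Cldn1, Cldn3, Cldn4, Cldn7 and Cldn12), a share of 55.6% against 56.2% of all protein-coding genes. A Snail peak was found for 8 of 9 (88.9%), all but Cldn8, against 66.7%. The 5 genes with Slug peaks all had Snail peaks too, so 5 of 9 (55.6%) had both, against 44.6% of all genes. Of all 21887 genes, 12291 had a Slug peak and 9758 had both. The members with Snail peaks and no Slug peak were Cldn6, Cldn9 and Cldn23, 3 of 9 against 22.1% of all genes and 25.9% of those no longer than the longest member. The reverse, Slug alone, occurred at 0 of 9 members, against 11.6% and 9.92%. The members are short, with a median span of 2.36 kb against 17.2 kb, and a longer gene has a wider window. Among the 10187 protein-coding genes no longer than the longest member, Cldn1 at 15.2 kb, 38.7% had a Slug peak, 54.8% a Snail peak and 28.8% both. Cldn8, the 1 member with no peak, belongs to a class of 21.7% of all genes and 35.3% of the short ones. The Slug share of the members was thus at the level of all genes and above that of short genes, and the Snail share was above both. The Snail count is not one of 8 independent genes, because Cldn6 and Cldn9 were assigned the same 2 peaks. It also includes Cldn23, whose peak scored 51.3 where the lowest score in the list was 50. With each peak given only to the nearest gene end, 7 members kept a Snail peak. The share of all genes under that rule was not computed, so this count has no background to be read against.

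**Figure D2:**
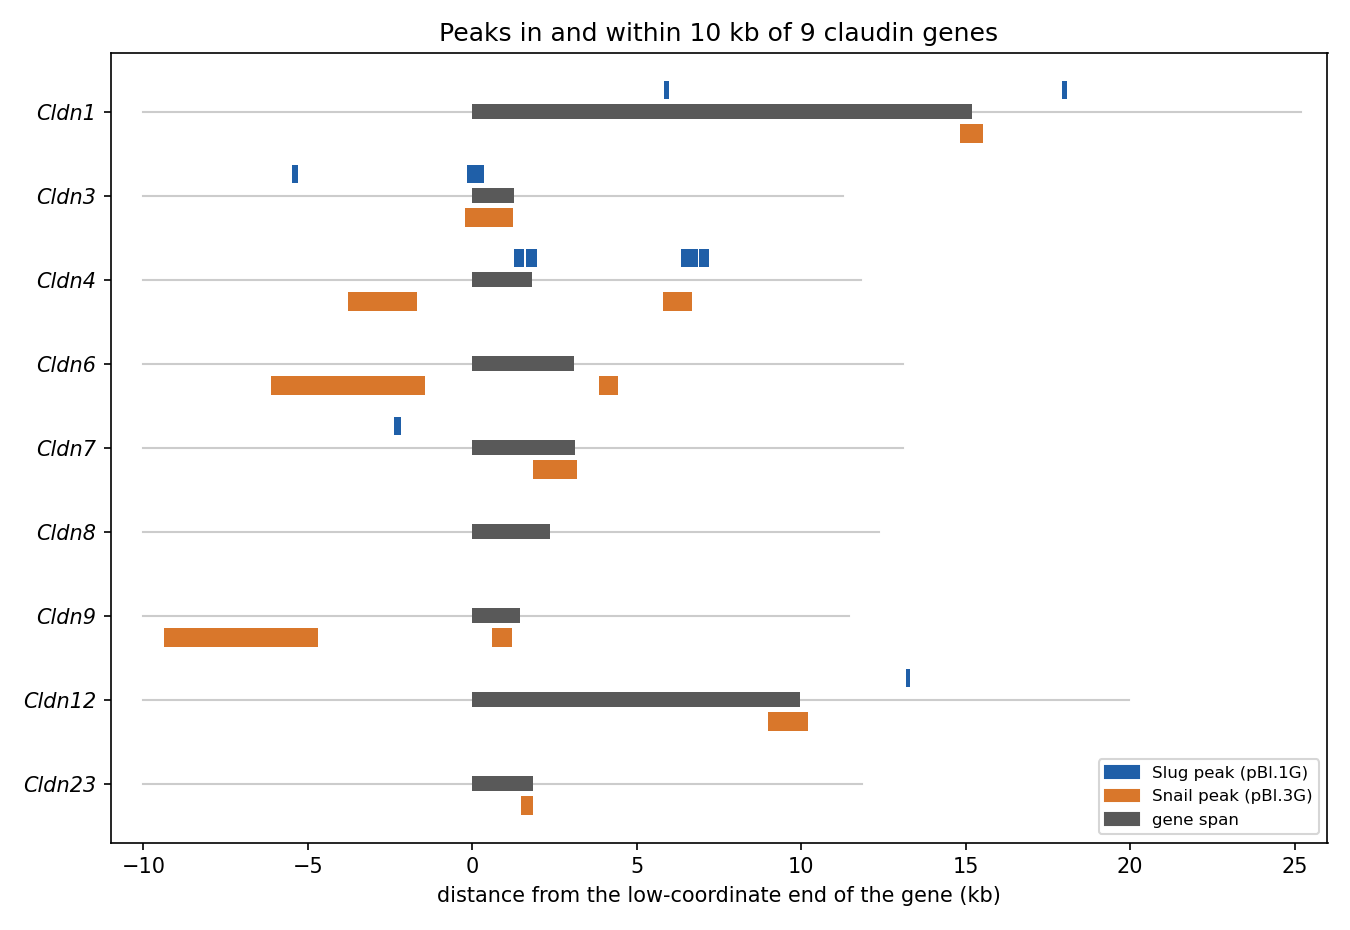
Map of the peaks in each gene and its flanks. The horizontal axis is the distance from the low-coordinate end of the gene in kb, grey boxes are gene spans, thin lines the window of 10 kb on each side, blue boxes Slug peaks and orange boxes Snail peaks, all to scale. Cldn4 carries 4 Slug peaks, Cldn8 carries no peak, and Cldn6 and Cldn9 carry the same 2 Snail peaks and no Slug peak.

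Each peak has a score from the authors' peak caller, on a scale that the files do not state, so scores were ranked within their own list and not compared between lists. The Slug scores of the members were modest. They ran from 51.9 to 159.1 with a median of 81.7, against a list median of 81.1, and no Slug peak of a member was in the top 10% of the list. Snail scores ran from 51.3 to 1521 with a median of 247, against a list median of 151, and 2 of the 9 peaks were in the top 10%. Slug peaks of the members were 114 to 525 bp wide, with a median of 258.5 bp against 206 bp in the list (upper quartile 257 bp). Their Snail peaks were 389 to 4673 bp wide, with a median of 1203 bp against 722 bp in the list (upper quartile 1124 bp).

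**Figure D3:**
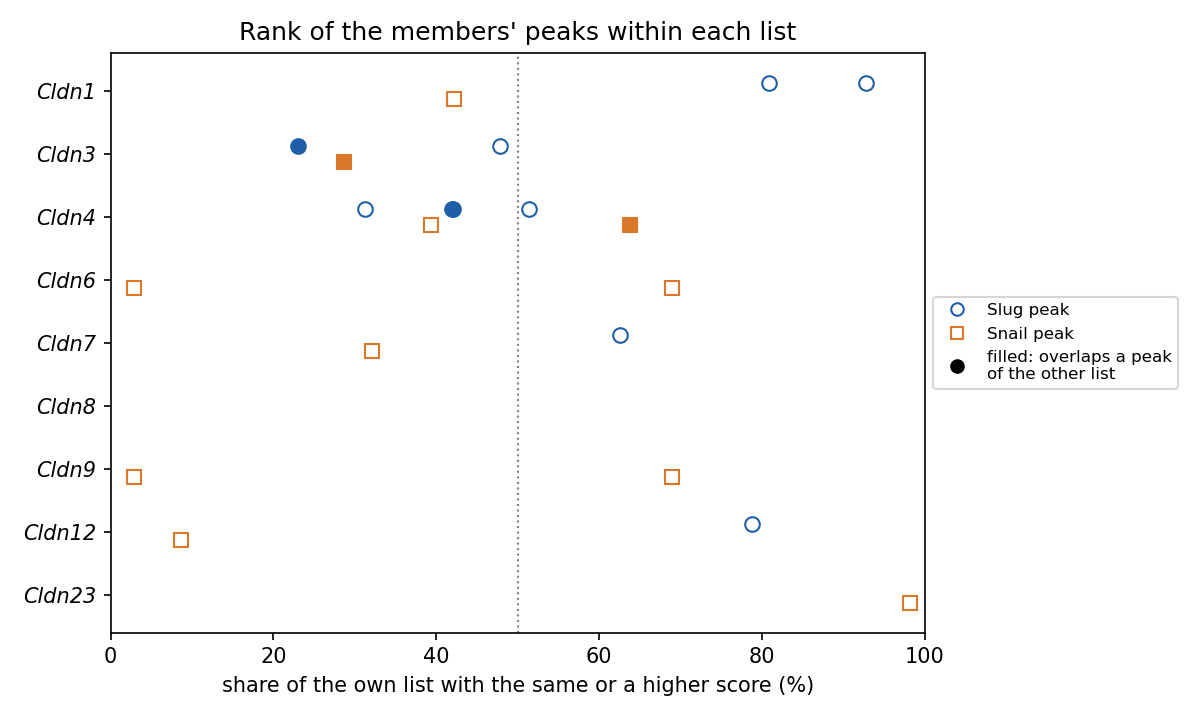
Rank of each peak within its own list. The horizontal axis is the share of the list, in percent, that scored as high or higher, so peaks to the left rank higher; circles are Slug peaks, squares Snail peaks, and filled symbols overlap a peak of the other list. Only Snail squares, those of Cldn6 and Cldn9 at 2.89% (1 peak) and of Cldn12 at 8.61%, lie left of 10, and 2 Cldn4 circles at 41.9% and 42.0% nearly coincide.

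Cldn3 and Cldn4 encode closely related claudins of simple epithelia, both known as receptors of a Clostridium enterotoxin. They are neighbours on chromosome 5, and in humans they lie in the region deleted in Williams syndrome. Both lists had a peak over the start of Cldn3 (134986214 to 134987476, plus strand). The Slug peak there, at 134986053 to 134986574, was 522 bp wide and scored 159, the highest of any member, with 23.0% of Slug peaks as high or higher. It lay whole inside a Snail peak of 1433 bp at 134986005 to 134987437, which scored 466 (28.6% of Snail peaks as high or higher) and covered most of this short gene. A second Slug peak, 5.39 kb upstream of the start at 134980738 to 134980904, scored 84.3 and had no Snail partner.

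Cldn4 (chromosome 5, 134945123 to 134946934, minus strand) had 4 Slug and 2 Snail peaks, the most of any member in the Slug list. All of them also lay within 10 kb of the neighbouring gene Mettl27. The Slug peaks formed 2 pairs. One pair stood at the start, with a peak of 328 bp over the start itself (134946762 to 134947089, score 94.9) and, 74 bp away and inside the gene, one of 303 bp (134946385 to 134946687, score 79.1). The other pair was upstream, with midpoints 4.79 and 5.22 kb from the start, scores of 95.2 and 124, and 13 bp between them. Whether such closely spaced calls mark separate sites was not tested. The nearer peak of the upstream pair, at 134951464 to 134951988, shared 330 bp with a Snail peak of 886 bp at 134950908 to 134951793, which scored 97.7.

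The start of Cldn4, with its pair of E-boxes under a Slug peak, had no Snail peak over it, and the midpoint of the nearest one lay 4.42 kb away. The remaining Snail peak (134941349 to 134943432, score 247) was placed downstream of Cldn4 across the high-coordinate end of Mettl27, a methyltransferase-like gene on the plus strand. The ends of the 2 genes opposite their starts thus face each other, 2.48 kb apart, and the midpoint of this peak was nearer to Mettl27.

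Between Cldn4 and Cldn3, over 39.3 kb with no other protein-coding gene, lay 5 Slug and 2 Snail peaks. The highest-scoring was outside both windows. At 134965981 to 134966317, 19.2 kb from Cldn4 and 20.1 kb from Cldn3, a Slug peak scored 492, with 2.71% of the list as high or higher. It lay whole inside a Snail peak of 1003 bp at 134965530 to 134966532, which scored 148. Another Slug peak, 12.9 kb from Cldn4, scored 237 and had no Snail partner. Both exceeded every Slug peak within 10 kb of a member.

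**Figure D4:**
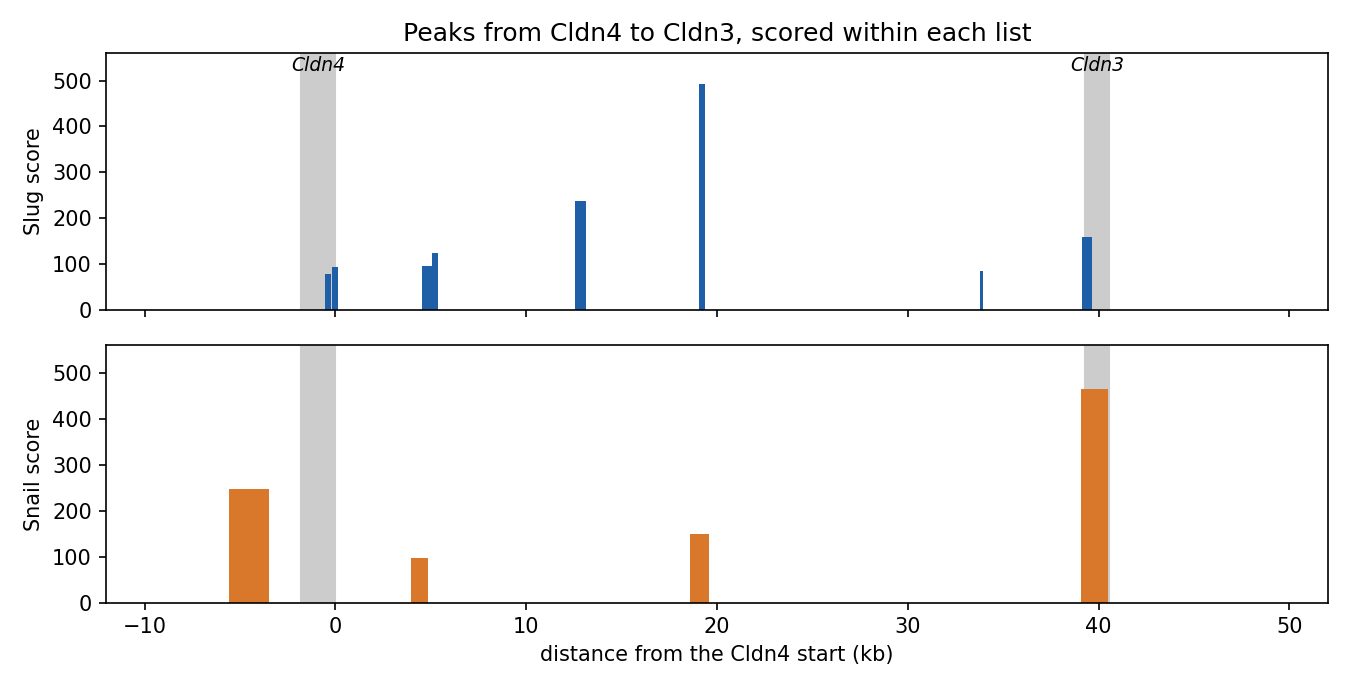
Peaks from Cldn4 to Cldn3. The horizontal axis is the distance from the Cldn4 start in kb, the vertical axis the score within the Slug list (upper panel, blue) or the Snail list (lower panel, orange), which are not on a common scale, and grey bands mark the genes. The highest Slug score, 492, stands midway between the genes above a Snail peak of 148, and the highest Snail score, 466, stands at Cldn3.

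Cldn1, a barrier-forming claudin needed for the water barrier of mouse skin (chromosome 16, 26356645 to 26371839, minus strand), had its start under a Snail peak of 679 bp that scored 210.5 (26371481 to 26372159). Its 2 Slug peaks lay elsewhere. One was inside the gene at 26362475 to 26362615, with a score of 56.3, and one 2.81 kb upstream at 26374576 to 26374731, with a score of 51.9. Both ranked low, with 80.9% and 92.8% of Slug peaks as high or higher, and neither touched the Snail peak.

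Cldn7, a claudin of many simple epithelia that binds the adhesion protein EpCAM (chromosome 11, 69964779 to 69967886, plus strand), had 1 peak of each list, at opposite sides of the gene. The Slug peak stood 2.28 kb upstream at 69962391 to 69962604 with a score of 67.5. The Snail peak, 1343 bp wide at 69966610 to 69967952 with a score of 380, covered the end opposite the start, as Snail peaks did for 3.12% of genes with a known strand. Elp5, which encodes a subunit of the Elongator complex, ends 337 bp beyond on the minus strand. Both the Slug and the Snail peak also lay within 10 kb of Elp5. Neither annotated start of Cldn7 was under a peak.

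Cldn12 (chromosome 5, 5505015 to 5514976, minus strand) is an unusual claudin that lacks the family's usual C-terminal motif for scaffold proteins. Among members with a promoter entry, it had the highest-scoring of the 3 Snail peaks that covered a start. This peak, 1203 bp wide at 5514011 to 5515213, scored 1102, with 8.61% of Snail peaks as high or higher, and covered all 3 annotated starts. The Slug peak of Cldn12, 114 bp wide and 3.27 kb upstream at 5518193 to 5518306, scored 57.3.

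Cldn6, a claudin of embryonic epithelia (chromosome 17, 23679348 to 23682446), and Cldn9, which is needed for hearing in mice (23682584 to 23684026), stand 137 bp apart and were assigned the same 2 Snail peaks and no Slug peak. The higher-scoring one belonged by position to other genes. It was 4673 bp wide at 23673222 to 23677894, scored 1521 (2.89% of Snail peaks as high or higher), and covered the starts of Tnfrsf12a (the receptor of the cytokine TWEAK), Hcfc1r1 and Thoc6 (a subunit of the THO complex of mRNA export). It also lay within 10 kb of Bicdl2. Its near edge stopped short of Cldn6, and its midpoint lay 3.79 kb beyond Cldn6. The other peak, at 23683191 to 23683778 inside Cldn9, scored 86.8 and also lay within 10 kb of Thoc6, Hcfc1r1 and Tnfrsf12a. When each peak was given only to the protein-coding gene with the nearest end, Cldn6 had none left and Cldn9 kept the peak inside it. The nearest Slug peak of Cldn6 was 14.6 kb beyond the gene and that of Cldn9 16.2 kb.

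Cldn23 (chromosome 8, 35824709 to 35826559) had 1 Snail peak, of 389 bp at 35826173 to 35826561, across its high-coordinate end. Its score of 51.3 was close to the lowest accepted in the list, 50, with 98.2% of Snail peaks as high or higher. This peak also lay within 10 kb of the gene Gm19410. Cldn23 has no promoter entry, so whether the covered end is its start was not determined. The nearest Slug peak was 14.4 kb beyond Cldn23. Cldn8, a claudin of the distal kidney tubule (chromosome 16, 88560826 to 88563183), had no peak of either list. The nearest Slug and Snail peaks were 51.8 and 64.1 kb from it.

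Overlapping Slug and Snail peaks occurred at Cldn3 and Cldn4 and at no other member, 2 of 9 genes against 18.4% of all protein-coding genes and 13.4% of those no longer than Cldn1. Of the members' peaks, 2 of 10 Slug and 2 of 9 Snail peaks were shared, against 12.1% and 16.6% of the whole lists. When both peaks had to cover at least 50% of each other, neither pair counted as shared, and 4.35% of all genes had such a pair.

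The rest of the claudin family and other tight junction genes were set beside the 9 members. Of 14 other claudins, peaks lay near 8 in the Slug list and near 7 in the Snail list, and 6 had none. No annotated start among the 13 with a promoter entry was covered in either list, and 1 of the 13 held CAGGTG there. The highest Slug scores among them were those of Cldn14 at 754, Cldn19 at 495 and Cldn11 at 489, each above every Slug score of the 9 members. The highest Snail scores were those of Cldn15 at 734, Cldn14 at 272 and Cldn13 at 152.

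Of 17 other tight junction genes, which encode the scaffolds, occludin relatives and adhesion molecules that claudins work with, Slug peaks lay near 16 and Snail peaks near all 17. Their median span was 58 kb, so their windows were far wider. Of the 10 with a promoter entry, Slug peaks covered the start of 2 and Snail peaks that of 6. Among all genes with an entry, the shares were 2.42% and 49.9%. The scaffold genes Tjp1 (ZO-1), Magi1 and Magi3 had the highest Slug scores, 526, 298 and 289. In the Snail list, Magi3 had a score of 1359, the highest of these genes, and Tjp1 one of 1082.

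**Figure D5:**
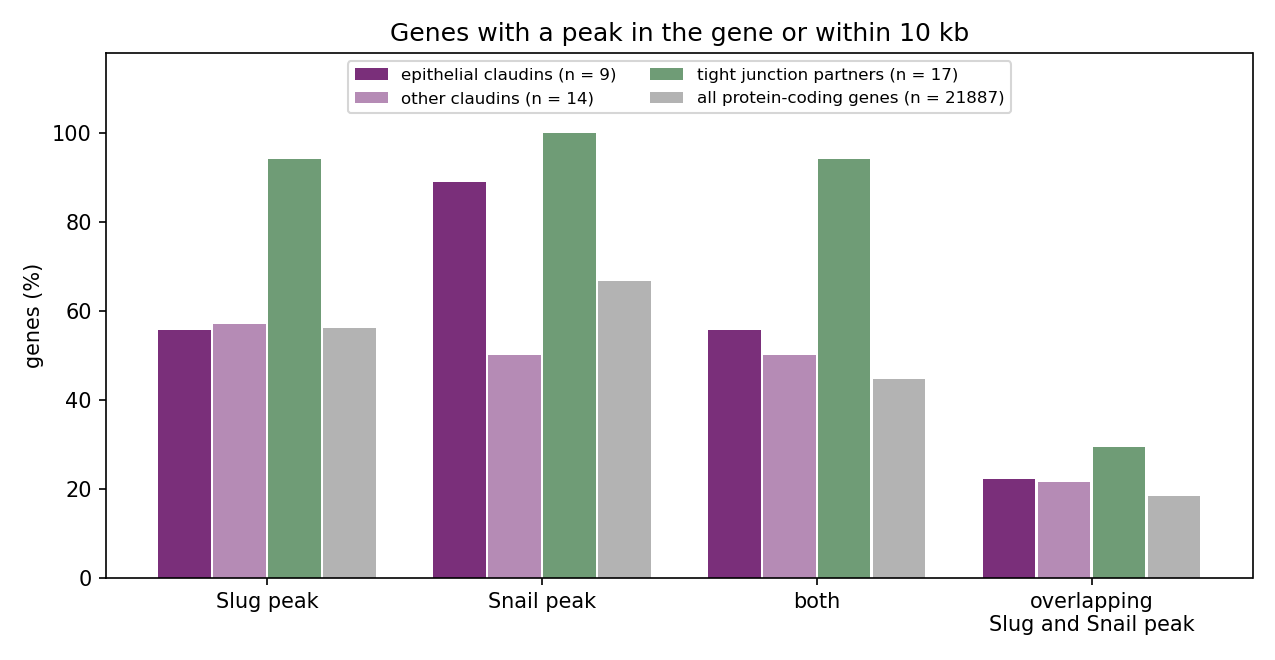
Share of genes with a peak. The vertical axis is the percentage of genes in each list with a peak in the gene or within 10 kb, for the 9 epithelial claudins, 14 other claudins, 17 tight junction partners and all 21887 protein-coding genes. The epithelial claudins stand level with all genes for Slug (55.6% and 56.2%) and higher for Snail (88.9% and 66.7%), and the tight junction partners, which are longer genes, stand highest in all 4 classes drawn.

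By the number of peaks, the median member had 1 Slug and 1 Snail peak. Of the other claudins and tight junction genes, 6 had the same numbers, a summed difference of 0 over the 2 libraries: Cldn15, Cldn17, Cldn19, Cxadr, Jam3 and Marveld2. Of the 3 claudins among them, Cldn17 alone had a Slug peak that overlapped a Snail peak, with scores of 93.95 and 75.2.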

How the data were processed

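ChIP-seq had been carried out on 4 samples, 2 ChIP libraries and 2 input libraries. The 2 peak lists are the authors' deposited files, with a position and a score for each peak. The submitters' processing notes name MACS 1.4.2, Bowtie and mm10. For Bowtie no version is given in the sources used here, nor for MACS its settings and control. The inputs were not used here. No read counts were used, so depth is unknown and no interval could be given for a peak.

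Starts were made 1-based. Genes came from the RefSeq table of GRCm38.p6, and starts and strand from its promoter table. Peaks were assigned by midpoint, and called shared at an overlap of 1 bp or more. Motifs were searched in the 300 bp promoter windows on both strands. The planned search inside peaks was not run, since no genome sequence was used here. Assignment and overlap were tested on simulated data. Python 3.11.15, numpy 2.4.6, pandas 2.3.3 and matplotlib 3.10.9 were used.

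The members and the 3 gene lists were chosen with earlier results of these data known. Named were all 9 members, neighbours sharing their peaks, the 3 genes of each other list with the highest score in each peak list, and the 3 most like the median member by peak number, with ties in order of symbol; all genes tied with them are named too. A gene that this rule would name is not reported here. Cldn25 occurs in the gene table only as a synonym of other genes and was not analysed here. Alternatives changed the window, the score minimum, the overlap and the assignment.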

Additional observations from a re-analysis of the deposited data

How the results depend on the processing

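Counts of members out of 9 moved with the window and the score minimum in the Slug list, as did the shares of all genes. With 1 kb on each side, 3 had a Slug peak, 2 both, and 1 an overlapping pair, against 40.4%, 31.1% and 13.1% of all protein-coding genes. With 20 kb, 8 had a Slug peak, 8 both and 5 an overlapping pair, against 67.5%, 55.4% and 23.4% of all genes. With a score of at least 100, 2 had a Slug peak, 2 both and 1 an overlapping pair, against 34%, 25.5% and 6.82% of all genes. Only the members' Slug peaks that scored 159 and 124 passed this minimum. Of them 1 was shared, against 10.1% of the list. With equal numbers of peaks in the lists, 3 had a Slug peak and 3 both, against 46.2% and 37.4% of all genes. With reciprocal overlap of 50%, 0 members had an overlapping pair, against 4.35% of all genes. Of their Slug peaks 0 were shared, against 3.73% of the list. The Snail count was between 6 and 8 in every alternative tried, while the share of all genes ran from 59.4% with 1 kb to 71.2% with 20 kb. Counts with 5 kb, or with any base of the peak in the window, equalled those reported. With 5 kb the shares of all genes fell to 48.4% for Slug, 63.4% for Snail, 37.6% for both and 15.6% for an overlapping pair. Counting gaps of at most 500 bp as shared gave 3 shared Slug peaks in place of 2, against 14.3% of the list. Giving each peak to the nearest gene end left 7 of 8 members with a peak, and the share of all genes was not computed for it. The causes were not tested beyond the construction of each alternative. No paired analysis was possible because each factor has 1 library and no test was made. Without depth or replicates, a missing peak says only that none was called.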
